A study of Rattus norvegicus with 12 samples.

Results

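Genes whose transcripts declined in steps from blood over the meninges to the brain parenchyma were examined in transgenic CD4+ T cells that recognise β-synuclein, a protein of neuronal synapses. They were chosen from the counts themselves. A level was expressed as CPM, the count divided by the library total and multiplied by 1000000, and B, M and P were the mean CPM plus 0.5 of the 3 transgenic libraries from blood, meninges and parenchyma. A gene was a member if its mean blood level was at least 5 CPM, if B/P was at least 3, if B exceeded M and M exceeded P, and if its lowest blood library lay above its highest parenchyma library. The rule also left out 4 identifiers, of which 2 met these conditions. This gave 152 members of 32754 gene rows. The fall between the transgenic tissues is therefore how the members were found and not a result about them.

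The cells came from rats of the LEW/Crl (Lewis) strain and were sorted 3 days after intravenous transfer. There were 4 groups of 3 libraries: wild-type ("wt") cells from blood, and cells with the genotype "b-syn TCR Tg", which carry a transgenic T cell receptor against β-synuclein, from blood, from the meninges of the brain and from the brain parenchyma. All 12 samples were labelled as β-synuclein-reactive CD4+ T cells. The labels state neither the number of animals behind a library nor the promoter of the transgene, nor whether replicates are separate animals. The p-values therefore set a difference between groups only against the variation between these libraries, and that variation may be technical. The titles of the parenchyma samples carry the digit 4 and all other titles the digit 3, and what the digit marks is not stated. If it marks a day, tissue and day cannot be told apart in any value for the parenchyma. Library totals ran from 16643832 to 38601400 counts. Those of wild-type blood (29959282 to 38601400) all lay above those of transgenic blood (16848739 to 21229957). The titles of the wild-type samples also have another form than those of the transgenic ones, and what the form marks is not stated. Depth, and any difference in handling, cannot be told apart from genotype in blood. Genes are listed by Ensembl identifier without a name, and 0 lines of the reference tables held such an identifier. The members are therefore described by their levels, no sequence is shown, and no more than 2 identifiers are printed for each direction of a comparison. For the same reason, neither the labelled cell type nor the presence of other cells could be checked against marker genes.

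As background, CD4+ T cells that circulate in blood express receptors for adhesion to vessel walls and for the signals that draw them into and out of tissues. T cells that reach the central nervous system first meet antigen-presenting cells in the meninges and around vessels, and cells that recognise their antigen there change the transcription of many genes. In RNA from sorted cells in bulk, fewer cells of one kind and less RNA per cell cannot be told apart.

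Expression of the members in blood covered a wide range. Mean levels in transgenic blood ran from 5.4 to 5375 CPM with a median of 63.2 CPM, and 34 members lay below 20 CPM, 61 from 20 to 100 CPM, 50 from 100 to 1000 CPM and 7 at 1000 CPM or more. The median member fell to 32.8 CPM in the meninges and to 15.5 CPM in the parenchyma. Together the 152 members took 3.75%, 3.59% and 3.705% of the counts of transgenic blood replicates 1, 2 and 3. They took 2.42%, 1.94% and 2.05% of those of the meninges and 0.906%, 1.03% and 1.01% of those of the parenchyma. Parenchyma libraries were thus alike in this share, whereas replicate 1 stood above the other two in the meninges. No member was without counts in a library (0 members at 0), and the lowest single values were 4, 5 and 8 counts in parenchyma replicates 1, 2 and 3, so that the weakest members carry large counting error there.

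Most members lay close to the limit of the rule. B/P had a median of 3.601 and an interquartile range from 3.28 to 4.46. It was below 4 in 97 members, from 4 to below 6 in 39 members and 6 or more in 16 members. Just inside the limit were members with B/P of 3.000 and 3.002, and just outside it were genes with 2.998 in both cases, so there was no gap in the values at the limit. Of 8912 rows with at least 5 CPM in blood, 157 had B/P of at least 3. All 157 also had separate blood and parenchyma libraries, and 154 of them had the meninges in between. The order of the tissues thus removed only 3 genes: 2 with the meninges at or above blood and 1 with the meninges at or below the parenchyma.

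The fall was shared between the steps unequally. The ratio of blood to meninges (B/M) had a median of 1.87 and ran from 1.02 to 3.56, and the ratio of meninges to parenchyma (M/P) had a median of 2.08 and ran from 1.05 to 6.30. On the log2 scale the part of the fall completed in the meninges had a median of 0.461 (interquartile range 0.329 to 0.565). The step into the meninges was the larger one in 60 members and the step into the parenchyma in 92. In 9 members less than 0.2 of the fall was reached in the meninges, so that these dropped mostly between meninges and parenchyma, and in 5 members more than 0.8 was reached there.

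**Figure D1:**
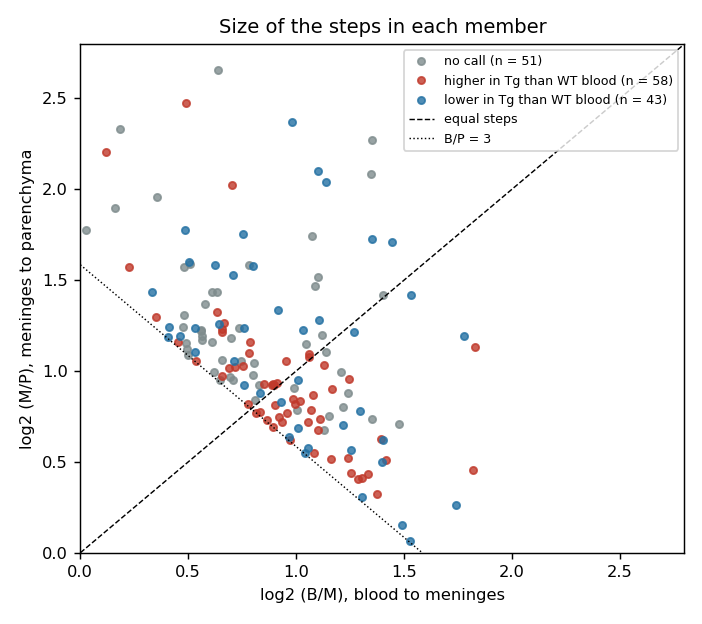
Size of the steps in each of the 152 members: the horizontal axis is the log2 ratio of blood to meninges, the vertical axis the log2 ratio of meninges to parenchyma, and colours give the call between genotypes in blood. Points above the dashed line (92 members) fell more from meninges to parenchyma, points below it (60 members) more from blood to meninges, and the dotted line is the 3-fold limit of the rule from blood to parenchyma.

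The libraries separated less fully at each single step than over both. All blood libraries lay above all meningeal libraries in 129 members (84.9%, against 18.6% of all 11809 tested genes). All meningeal libraries lay above all parenchyma libraries in 117 members (77.0%, against 13.4%). Blood lay above parenchyma in all 152 by the rule (against 21.8%). Both single-step separations were present in 97 members and neither in 3. edgeR's quasi-likelihood test with Benjamini-Hochberg adjustment over 11809 genes (threshold 0.05) was fitted on the 9 transgenic libraries. It called 55 members lower in meninges than in blood (36.2%, against 1.75% of all tested genes). It called 105 lower in parenchyma than in meninges (69.1%, against 7.48%) and all 152 lower in parenchyma than in blood (against 16.4%). It called 0 members higher in meninges than in blood (against 4.76% of all tested genes), in parenchyma than in blood (against 18.7%) or in parenchyma than in meninges (against 8.0%). Nothing is read from these counts, since the rule used the same libraries. By these calls, 45 members were lower at both steps, 10 only at the step into the meninges, 60 only at the step into the parenchyma and 37 at neither single step. Members without a call may still differ. The count of 55 was 97 with DESeq2 and 88 in a fit of blood and meninges alone. Omission of transgenic blood replicate 2 or 3 gave 32 or 35, and omission of meninges replicate 2 or 3 gave 29 or 32.

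The pair of members with the highest mean in transgenic blood had separate libraries at each step. ENSRNOG00000054890 had 6100, 5431 and 4593 CPM in transgenic blood replicates 1, 2 and 3, then 4041, 3115 and 3761 CPM in the meninges and 1680, 1599 and 1560 CPM in the parenchyma. Its 3 tissues did not overlap, and the parenchyma libraries were the closest to each other. ENSRNOG00000018087 had 3519, 3590 and 4353 CPM in transgenic blood, 2703, 2137 and 2039 CPM in the meninges and 827, 994 and 1100 CPM in the parenchyma, again without overlap. For meninges against blood, edgeR did not call ENSRNOG00000054890 (log2 fold change -0.51, adjusted p = 0.068). It called ENSRNOG00000018087 lower (log2 fold change -0.68, edgeR adjusted p = 0.0413). Wild-type blood held 4738, 4894 and 5555 CPM of the former and 4884, 3766 and 4486 CPM of the latter, which overlapped with transgenic blood in each case.

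The pair of members with the largest B/P had mean levels in transgenic blood of 294 and 103 CPM. ENSRNOG00000002652 had 282, 333 and 267 CPM in transgenic blood, 111, 109.8 and 123.0 CPM in the meninges and 33.9, 10.1 and 26.1 CPM in the parenchyma, with B/P of 12.3. The meningeal libraries were nearly equal, and parenchyma replicate 2 was the lowest of all libraries. ENSRNOG00000049361 had 73.2, 111.6 and 123.2 CPM in transgenic blood, 34.0, 38.5 and 47.7 CPM in the meninges and 8.61, 4.44 and 14.2 CPM in the parenchyma, with B/P of 10.8. Here too the lowest value was that of parenchyma replicate 2. In wild-type blood these genes stood at 242, 318 and 331 CPM and at 75.8, 66.6 and 72.8 CPM, and neither passed the test between genotypes (edgeR, adjusted p = 0.904 and 0.0671, log2 fold changes of transgenic over wild-type -0.03 ± 0.14 and 0.50 ± 0.18 (SE), n = 3 per group). For ENSRNOG00000049361 the adjusted p ranged from 0.0131 to 0.273 over other settings, and it passed with DESeq2 (0.0387), without a filter on low counts (0.035) and without transgenic blood replicate 1 (0.0131).

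**Figure D2:**
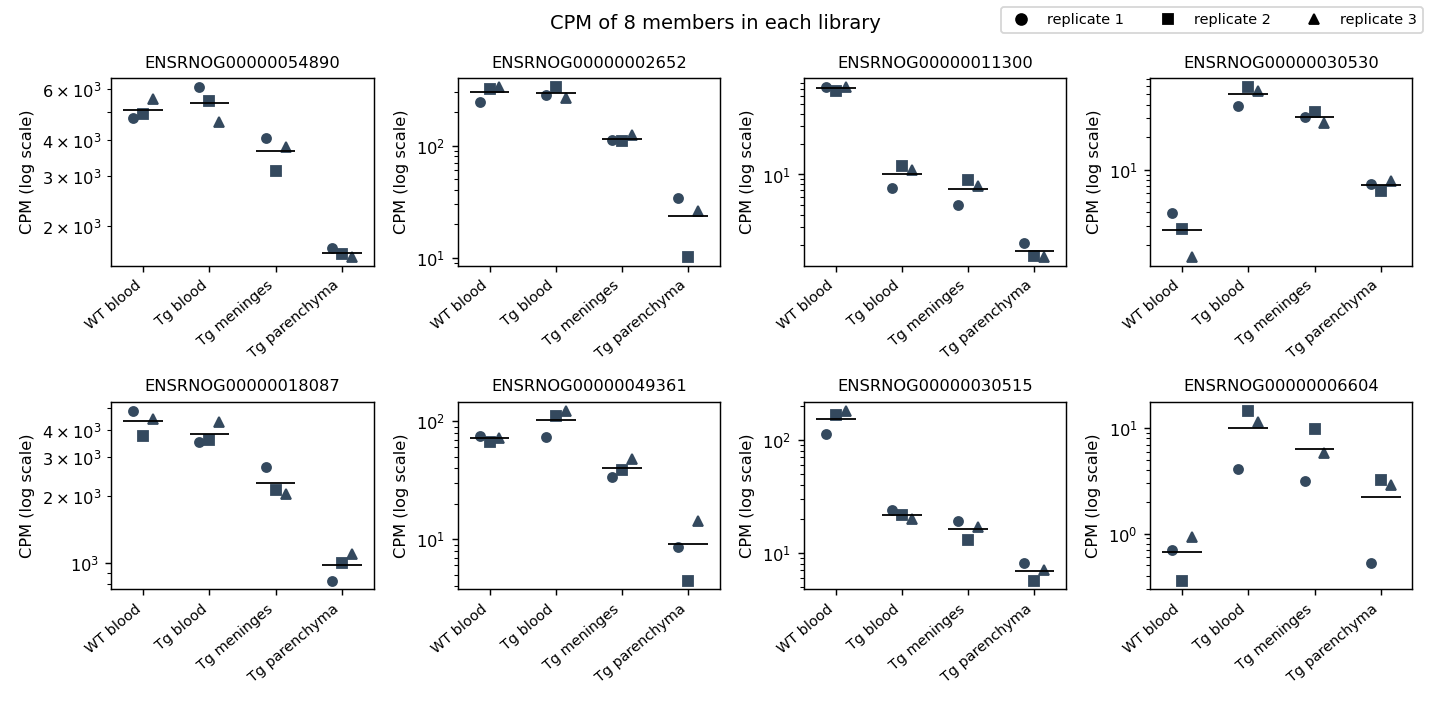
CPM on a log axis in each of the 12 libraries for 8 members: those highest in transgenic blood, those with the largest B/P, and those with the largest differences between genotypes in each direction. Symbols mark replicates and bars the mean of 3 libraries; blood, meninges and parenchyma descend in every panel, while wild-type blood lies above transgenic blood in ENSRNOG00000011300 and ENSRNOG00000030515, below it in ENSRNOG00000030530 and ENSRNOG00000006604, and less far from it in the other panels.

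Wild-type blood was not used by the rule, so the comparison of genotypes in blood is the one test open to these genes. Library depth differed between the genotypes and cannot be told apart from genotype here. The comparison still shares the 3 transgenic blood libraries with the rule. It was fitted on the 6 blood libraries, and all 152 members were among the 11618 genes tested. Transgenic cells were higher than wild-type cells in 58 members (38.2%) and lower in 43 (28.3%), while 51 were not called. Over all tested genes, 13.1% were called higher and 12.8% lower. Among the 8912 tested genes with at least 5 CPM in transgenic blood, these shares were 14.5% and 11.1%. Of 1776 other genes called lower in parenchyma than in blood, 22.9% were higher and 13.3% lower in transgenic blood. Selection of genes that are high in transgenic blood favours the higher direction, and how far it moved the counts in either direction was not tested. The members divided in both directions. Their median log2 fold change was 0.003 (all tested genes -0.005), but the interquartile range ran from -0.55 to 1.80, against -0.34 to 0.30 over all tested genes. An absolute log2 fold change above 1 was found in 68 members (44.7%) and in 12.8% of all tested genes. The counts of 58 and 43 were 60 and 47 with DESeq2, and 47 and 21 when an absolute log2 fold change above 1 was also required. The balance of directions depended on the B/P limit, which was varied here after the data were seen. With B/P of at least 4 the rule chose 55 genes, of which 12 were higher and 20 lower in transgenic blood. With B/P of at least 2 it chose 471 genes, of which 218 were higher and 87 lower.

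**Figure D3:**
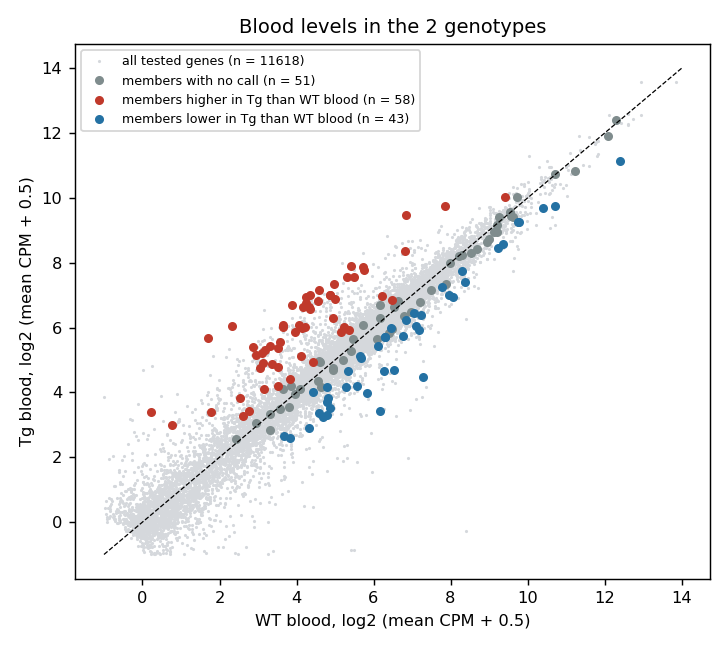
Mean level in wild-type blood (horizontal) and transgenic blood (vertical), as log2 of mean CPM plus 0.5, for 11618 tested genes (grey) and the 152 members coloured by their call. The 58 red members lie above the line of equal levels, the 43 blue ones below it, and of the 7 members at 1000 CPM or more in transgenic blood 5 were not called.

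The libraries of the genotypes did not overlap in most of these members. All transgenic libraries lay above all wild-type libraries in 65 members (42.8%, against 23.6% of all tested genes). All wild-type libraries lay above all transgenic ones in 51 members (33.55%, against 20.2%), and in 36 members they overlapped. Libraries were separate in all 58 members called higher and all 43 called lower. The call and the separation rest on the same libraries, so this is no added support for the calls.

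For the 43 members lower in transgenic blood, the call and the rule together place wild-type blood above all transgenic tissues, so the order of the groups is no result and only the levels are described. Their median level was 78.6 CPM in wild-type blood, 43.1 CPM in transgenic blood, 24.7 CPM in the meninges and 10.4 CPM in the parenchyma. Together they took 1.48% ± 0.0451 of the counts in wild-type blood, 0.765% ± 0.0626 in transgenic blood, 0.355% ± 0.0101 in the meninges and 0.189% ± 0.0185 in the parenchyma (SD, n = 3). Of the 16 members with B/P of 6 or more, 7 were in this group. A further 3 were among the 58 called higher and 6 among the 51 without a call. B/P is a value of the rule, so nothing is read from these counts. ENSRNOG00000011300 had the largest difference, with 73.7, 68.0 and 73.8 CPM in wild-type blood and 7.39, 12.1 and 11.04 CPM in transgenic blood (log2 fold change -2.84, SE 0.18, edgeR adjusted p = 1.46e-05). Its levels were 4.98, 8.77 and 7.61 CPM in the meninges, where they overlapped with transgenic blood, and 2.10, 1.56 and 1.51 CPM in the parenchyma. ENSRNOG00000030515 had 113.9, 167 and 182 CPM in wild-type blood and 23.8, 21.7 and 19.9 CPM in transgenic blood (log2 fold change -2.83, SE 0.18, edgeR adjusted p = 1.71e-05), followed by 19.2, 12.9 and 16.9 CPM in the meninges and 8.03, 5.63 and 7.02 CPM in the parenchyma. In both genes the gap between the genotypes in blood was wider than the whole fall from transgenic blood to parenchyma, which was 4.8-fold and 3.02-fold by B/P. The adjusted p ranged over other settings from 1.41e-48 to 0.000107 for ENSRNOG00000011300 and from 2.07e-45 to 0.000142 for ENSRNOG00000030515.

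The 51 members without a call had the highest levels. Their median was 92.5 CPM in wild-type and 89.8 CPM in transgenic blood, 47.9 CPM in the meninges and 21.3 CPM in the parenchyma, and wild-type blood was above the meninges in 50 of the 51. They took 2.35% ± 0.117 of the counts in wild-type and 2.205% ± 0.0756 in transgenic blood, 1.40% ± 0.158 in the meninges and 0.586% ± 0.0160 in the parenchyma. In 10 of them the step into the meninges was the larger one, against 18 of the 43 and 32 of the 58 members of the other groups. Nothing is read from these counts, since the steps are values of the rule and the call uses the same transgenic blood libraries.

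In the 58 members higher in transgenic blood, the call places wild-type blood below transgenic blood but does not fix its place against meninges and parenchyma. Their median level was 17.4 CPM in wild-type blood and 64.9 CPM in transgenic blood, followed by 31.4 CPM in the meninges and 16.8 CPM in the parenchyma. By the means alone, wild-type blood was below the meninges in 50 of them and below the parenchyma in 36. Among all 152 members these counts by means were 51 and 36. They have no share over all tested genes to be set against, so nothing is read from them. All wild-type libraries lay below all meningeal ones in 31 of the 152 (20.4%, against 25.3% of all tested genes). They lay below all parenchyma libraries in 2 of the 152 (1.3%, against 30.6%). The median difference between genotypes was 2.06 on the log2 scale, and it exceeded 1 in 47 members and 2 in 31. Steps between the transgenic tissues were about even, with a median B/M of 1.91 and M/P of 1.85. In the members lower in transgenic blood B/M was 2.01 and M/P 2.29, and in those without a call 1.63 and 2.26. The interquartile ranges of M/P overlapped (1.649 to 2.105 in the 58, 1.619 to 2.795 in the lower ones, 1.964 to 2.735 without a call). These ratios are values of the rule, and no difference between the groups of members is read from them. ENSRNOG00000030530 had the largest difference, with 3.96, 2.798 and 1.54 CPM in wild-type and 38.7, 58.7 and 53.6 CPM in transgenic blood (log2 fold change 4.14, SE 0.32, edgeR adjusted p = 4.49e-05). It fell to 31.0, 34.3 and 27.0 CPM in the meninges and 7.40, 6.32 and 7.82 CPM in the parenchyma, where it was still above every wild-type blood library. ENSRNOG00000006604 had 0.700, 0.357 and 0.935 CPM in wild-type blood, from 27, 13 and 28 counts, and 4.10, 14.7 and 11.5 CPM in transgenic blood (log2 fold change 3.91, SE 0.48, edgeR adjusted p = 0.000562). Its values of 3.19, 9.91 and 5.85 CPM in the meninges overlapped with those of blood, and parenchyma replicate 1, at 0.525 CPM or 10 counts, stood far below replicates 2 and 3 at 3.25 and 2.88 CPM. The adjusted p ranged over other settings from 3.27e-46 to 0.000483 for ENSRNOG00000030530 and from 2.71e-18 to 0.00317 for ENSRNOG00000006604.

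**Figure D4:**
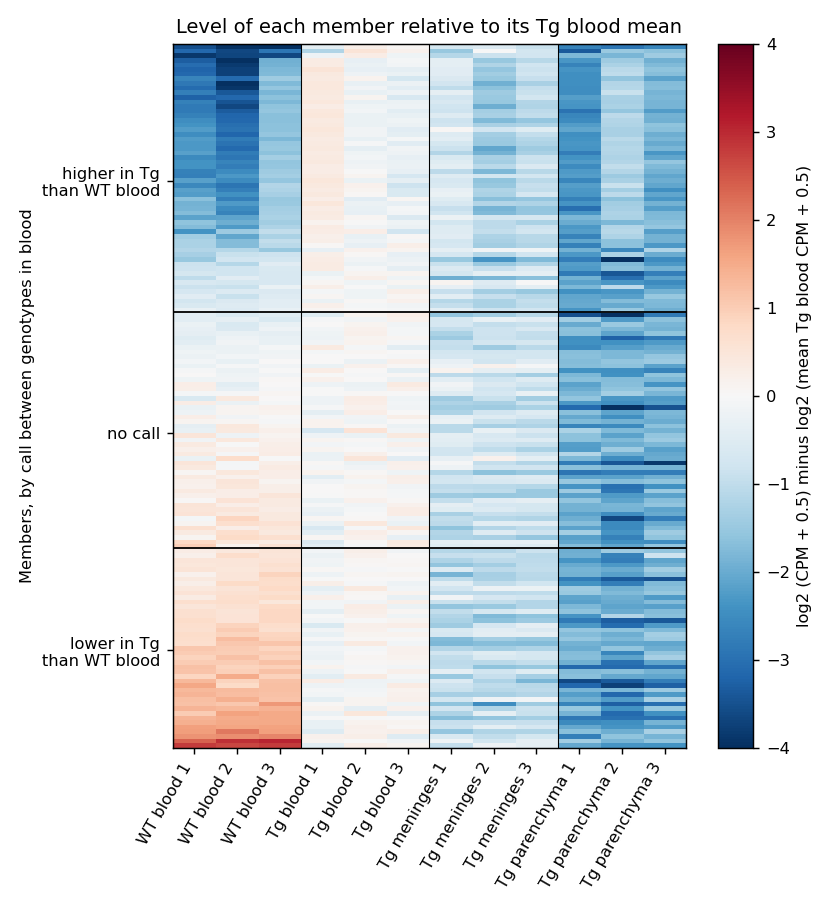
Level of each of the 152 members (rows) in each of the 12 libraries (columns), as log2 of CPM plus 0.5 relative to the mean of transgenic blood, with rows grouped by the call between genotypes in blood. Blue deepens from transgenic blood to parenchyma in every group, wild-type blood is blue in the 58 members higher in transgenic blood and red in the 43 lower ones, and within the 58 single columns stand out: transgenic blood 1, meninges 1 and parenchyma 2 are the higher ones of their groups.

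Members higher in transgenic blood also rose and fell together between replicates. Transgenic blood replicate 1 was the highest of its group in 48 of the 58 members (82.8%, against 28.5% of all tested genes), and meninges replicate 1 in 48 (82.8%, against 34.2%). Parenchyma replicate 2 was so in 47 (81.0%, against 38.7%) and wild-type blood replicate 3 in 52 (89.7%, against 35.4%). At once in all 4 groups, this was so in 41 of the 58 members, in 1 of the 43 lower in transgenic blood, in 1 of the 51 without a call and in 5.32% of all tested genes. This combination of libraries was chosen after the values were seen and is given as a description with no test. The joint share of the 58 members was 0.214%, 0.165% and 0.3005% of the counts in wild-type blood replicates 1, 2 and 3, and 0.875%, 0.651% and 0.614% in transgenic blood. It was 0.4955%, 0.296% and 0.370% in the meninges and 0.138%, 0.283% and 0.198% in the parenchyma. Parenchyma replicate 2 thus nearly reached the lowest meningeal library, and wild-type replicate 3 was above it. The groups of replicates were unequal in spread accordingly: the median SD of log2(CPM + 0.5) among the 58 was 0.587 in wild-type blood, 0.335 in transgenic blood, 0.389 in the meninges and 0.568 in the parenchyma. Over all tested genes it was 0.183, 0.184, 0.161 and 0.217 in the same order, and in the 43 members lower in transgenic blood 0.140, 0.203, 0.2045 and 0.2895. Whether the libraries that are high share an animal, a day or a kit is not stated, and the part of any of these in the result was not tested.

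**Figure D5:**
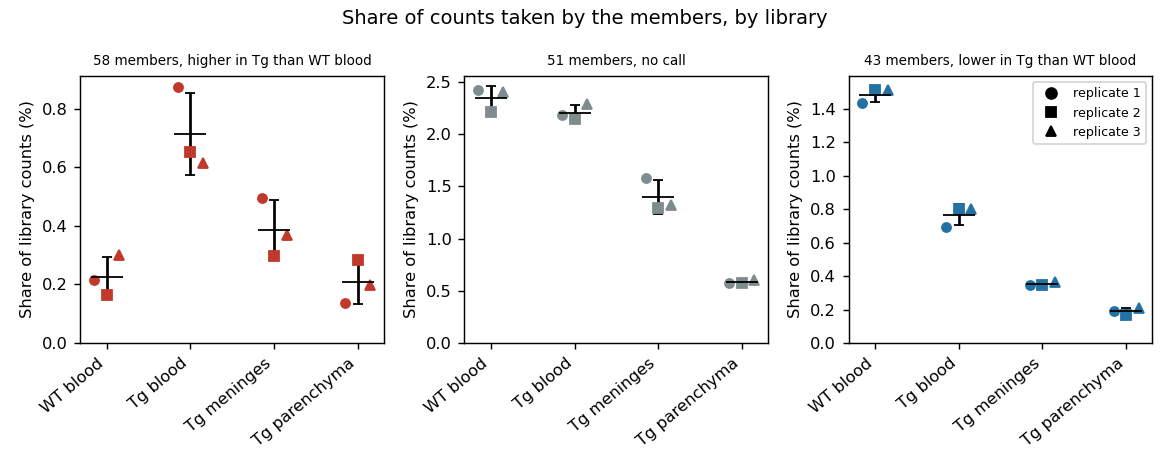
Share of each library's counts, in percent, taken by the 58 members higher in transgenic than wild-type blood, the 51 without a call and the 43 that were lower; points are libraries, with one symbol per replicate number, and bars are mean and SD of 3 libraries. The 43 members descend from wild-type blood to parenchyma, the libraries of both genotypes overlap in blood for the 51 members, and the 58 members are lowest in wild-type blood and parenchyma.

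The number of chosen genes that were higher in transgenic blood changed with the omission of single libraries from the rule. Applied without transgenic blood replicate 1, the rule chose 138 genes, 122 of them members, and 33 (23.9%) were higher in transgenic than in wild-type blood. Without parenchyma replicate 1 it chose 122 genes, 117 of them members, of which 30 (24.6%) were higher. Without parenchyma replicate 2 it chose 216 genes, 134 of them members, of which 129 (59.7%) were higher. Without transgenic blood replicate 3 it chose 176 genes, with 85 (48.3%) higher. The genes lower in transgenic blood moved less, from 36 to 52 over the 9 omissions, and those without a call numbered from 49 to 58. The share of genes higher in transgenic blood ranged from 23.9% to 59.7% over these choices, against 13.1% of all tested genes and 22.9% of the other genes called lower in parenchyma than in blood. Without transgenic blood replicate 1 or parenchyma replicate 1 it was thus close to the latter. The share of genes lower in transgenic blood ranged from 16.7% to 34.8%, against 12.8% and 13.3%.

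Set against the brain compartments, wild-type blood lay above all meningeal libraries with all of its own in 91 members (59.9%, against 25.1% of all tested genes). It lay below all of them in 31 (20.4%, against 25.3%). It lay above all parenchyma libraries in 106 members (69.7%, against 22.6%) and below all of them in 2 (1.3%, against 30.6%). These comparisons join a difference of genotype to one of tissue, which cannot be told apart in this design, and the low parenchyma level is part of how the members were chosen.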

How the data were processed

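Whole-number counts per Ensembl gene were deposited by the authors for each of the 12 libraries. Per the submitters' processing notes, reads were handled with STAR 2.5 and featureCounts 1.5.0-p1 on genome build rn6. The annotation, the settings and the use of strand are not known from these sources, and antisense, overlapping or near-identical genes may therefore share counts. Trizol was used for RNA, per the labels' protocols, and TruSeq and NEBNext low-input kits are named without saying which served which library; a kit that differs between groups cannot be told apart from the group.

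Groups and replicate numbers came from the sample titles. No replicate pair of a group agreed within sampling noise (lowest chi-square per degree of freedom 14.79). CPM used file totals. Tests used edgeR 4.0.16 in R 4.3.3 (filterByExpr with a minimum count of 10, TMM scaling, quasi-likelihood F test, two-sided, Benjamini-Hochberg adjustment over all genes tested, threshold 0.05); DESeq2 1.42.0 was an alternative. SEs of log2 fold changes were derived from the F statistic (absolute log2 fold change over root F). The procedure was also run on simulated data in which genes varied independently of each other. That run is no support for the results here, where members higher in transgenic blood rose and fell together between replicates.

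The members and lists were chosen with earlier results of these data known. Identifiers printed are, up to 2 of each, members with the highest transgenic blood level, the largest B/P, and the largest called difference between genotypes in each direction. The gene lists, cell type markers and promoter words that had been listed for this work need gene names and were not used here.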

Additional observations from a re-analysis of the deposited data

How the results depend on the processing

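Alternatives were other scalings, filters, tools, fits and limits, and omission of each library in turn. The number of members, 152, was 471 with B/P of at least 2, 55 with B/P of at least 4, and 122 to 216 with 1 transgenic library omitted. Members higher in transgenic than wild-type blood (58) numbered 51 to 55 with 1 blood library omitted, and those lower (43) 35 to 45, or 21 when the log2 fold change also had to exceed 1 in size. With the member rule varied, a choice made after seeing the data, they numbered 218 higher and 87 lower at B/P of at least 2, 12 and 20 at B/P of at least 4, and 30 to 129 and 36 to 52 with 1 library omitted from the rule.

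Members lower in the meninges than in blood (55) numbered 97 with DESeq2, 88 in a fit of these groups alone and 29 to 77 with 1 library omitted. Members lower in the parenchyma numbered 151 to 152 against blood and 85 to 123 against the meninges with 1 library omitted.

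Over all genes, transgenic against wild-type blood gave 953 to 1423 higher and 836 to 1483 lower with 1 library omitted, and 686 and 612 with the fold limit. Meninges against blood gave 853 higher and 485 lower with DESeq2, 466 lower in a fit of these groups alone, 348 and 79 with the fold limit, and 286 to 672 and 59 to 297 with 1 library omitted. Parenchyma against blood gave 1204 and 722 with the fold limit, and 1743 to 2388 and 1487 to 2028 with 1 library omitted. Parenchyma against meninges gave 541 and 289 with the fold limit, 584 higher in a fit of these groups alone, and 325 to 1255 and 405 to 904 with 1 library omitted. The fold limit can only remove calls. Between genotypes, each omission of 1 library lowered both counts, from 1518 higher and 1484 lower with all blood libraries. Between tissues the counts moved in both directions with 1 library omitted. The cause of the moves other than those by the fold limit was not tested.

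The log2 fold change between genotypes of ENSRNOG00000054890 (0.077) was -0.041 without transgenic blood replicate 1 and ranged from there to 0.169 with 1 library omitted. That of ENSRNOG00000002652 (-0.028) was 0.033 and 0.022 without wild-type blood replicates 2 and 3 and 0.026 without transgenic blood replicate 3, in a range from -0.147 to 0.033 with 1 library omitted; neither gene was called in any setting.

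With the replicate number as a block, 56 members were higher and 42 lower in transgenic blood, 48 were lower in meninges than blood and 100 lower in parenchyma than meninges. Deviations of same-numbered libraries from their group means correlated at -0.266 to 0.368 over 18 pairs, and in 0 of 6 pairs of groups were all above 0.1, so the numbers were not taken to pair samples. The library with the same number correlated best in 6 of the 18.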
